A study of Rattus norvegicus with 2 samples.

Results

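The 3 TGF-beta ligands (Tgfb1, Tgfb2 and Tgfb3), the latent binding protein Ltbp1, the TGF-beta-induced matrix protein Tgfbi and the CCN proteins Ccn1, Ccn2, Ccn3, Ccn4 and Ccn5 were followed through 2 single-cell libraries of cells from the rat optic nerve. They were picked by gene symbol, and all 10 symbols were found once among the 25399 genes of the files. In the collagen-rich (fibroblast) clusters, Ccn2, Ccn3, Ccn5 and Tgfb3 were over 2-fold lower in the Nuc1 library than in the WT library, and Tgfbi was over 2-fold higher. Tgfb3 fell short of 2-fold, at a log2 ratio of -0.92, when 1 of these clusters, in which it was nearly absent, was left out. Ccn3 had 1989 CPM (UMIs per 1000000 UMIs of the class) in WT and 540.0 in Nuc1, and Tgfbi 146 and 322. In astrocyte-like cells Ccn1, Ccn2, Ccn5 and Tgfb3 were over 2-fold lower in Nuc1.

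TGF-beta is secreted as a latent dimer, bound by its own propeptide and by a latent binding protein that fixes it in the matrix. Once freed, it binds the type II receptor Tgfbr2, which activates Tgfbr1, and Smad2 and Smad3 then enter the nucleus with Smad4. CCN proteins are secreted multidomain proteins of the matrix that bind integrins and growth factors. Ccn1 and Ccn2 are rapidly induced targets of Yap1 with the TEAD factors, of Smad proteins and of serum factors. In nerve sheath and scar tissue, fibroblasts, glia and macrophages are known sources of these ligands.

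Both libraries came from postnatal day 7 rats by the labels, 1 from WT animals (Sprague Dawley) and 1 from Nuc1 rats, which carry a spontaneous insertion mutation in Cryba1, and the title and the methods describe a mixed primary culture of optic nerve cells. The methods give pups of a younger age for the astrocyte cultures and state neither how many animals were pooled nor the sex of the animals behind each library. The WT library held 34517542 UMIs (unique molecular identifiers, 1 per captured transcript molecule) in 2107 barcodes and the Nuc1 library 35794685 in 1929. Filtering left 1961 WT and 1780 Nuc1 cells, at medians of 14050 and 16568 UMIs per cell, and the 10 genes were kept out of the genes used to cluster them. Cryba1 had no UMI in either library, so the genotype could not be checked from it. UMIs of Y-linked genes were found in 278 of 1263 Nuc1 collagen-rich cells and in 1 WT collagen-rich cell. With 1 library per genotype, genotype cannot be told apart from culture, library or sex, no p-value is given, and the intervals in parentheses are exact 95% intervals that cover counting error only.

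Of 11 clusters, 6 were rich in collagen and other fibroblast transcripts and held 88.8% of WT cells and 71.0% of Nuc1 cells. They were cluster 0, led by Igfbp5 and Shisa3 (666 WT and 394 Nuc1 cells), cluster 1, led by Lum and Penk (537 and 198), cluster 3, with Cldn11 and Tgm2 among its leading genes (262 and 190), cluster 4, led by Inmt and Cyp26b1 (53 and 368), the dividing cluster 5 (147 and 76) and cluster 7, led by Cdkn3 and Actg2 (76 and 37). Cluster 7 also held RNA of 7 division markers, at 1106 CPM in WT and 944 in Nuc1, against 3395 and 3132 in cluster 5. Cluster 2 was astrocyte-like (108 and 349 cells) and was led by Gfap and Hspb1. The other clusters were small: cluster 6, cilia-like (14 and 105), cluster 8, oligodendrocyte lineage-like (52 and 15), cluster 9, led by Gldn and Fbln2 and left unnamed (22 and 26), and cluster 10, macrophage-like (24 and 22). In cluster 10 the median was 8231 UMIs per cell in WT and 1808 in Nuc1. Without integration some fibroblast clusters split by library, with 955 WT cells and 1 Nuc1 cell in the first such cluster and 9 and 710 in the next. The others held cells of both libraries, with 579 and 94, 51 and 384, and 156 and 74. Ccn3 and Tgfbi were among the 10 leading genes of cluster 0, Tgfbi of cluster 3 and Ccn2 of cluster 1, so their levels across clusters are descriptions.

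The windows around the annotated starts of Ccn2, Ccn1, Tgfb3 and Tgfbi are shown because these 4 genes differed by over 2-fold between the libraries in a main class and had a window in the RefSeq table of build GRCr8, which held 7 of the 10 genes (Tgfb1, Tgfb2, Tgfb3, Tgfbi, Ltbp1, Ccn1 and Ccn2). Each window runs 5′ to 3′ on the gene's strand, from 250 bases before the start to 50 after it. Capitals mark matches, on either strand, to GGAATG (the core bound by TEAD factors), CAGAC (a core bound by Smad proteins), TGACTCA (AP-1), TGACGT (part of the CRE), TATAAA (the TATA box) or the CArG box bound by SRF. All 4 genes lie on the minus strand. The windows are chr1:22624565-22624864 for Ccn2, chr2:237225640-237225939 for Ccn1, chr6:111456897-111457196 for Tgfb3 and chr17:7990064-7990363 for Tgfbi.
Ccn2: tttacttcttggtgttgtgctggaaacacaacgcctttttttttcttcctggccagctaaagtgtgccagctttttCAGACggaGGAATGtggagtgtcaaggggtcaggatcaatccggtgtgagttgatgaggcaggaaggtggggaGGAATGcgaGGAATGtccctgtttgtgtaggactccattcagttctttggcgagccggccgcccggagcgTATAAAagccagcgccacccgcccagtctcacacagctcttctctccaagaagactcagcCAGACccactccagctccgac
Ccn1: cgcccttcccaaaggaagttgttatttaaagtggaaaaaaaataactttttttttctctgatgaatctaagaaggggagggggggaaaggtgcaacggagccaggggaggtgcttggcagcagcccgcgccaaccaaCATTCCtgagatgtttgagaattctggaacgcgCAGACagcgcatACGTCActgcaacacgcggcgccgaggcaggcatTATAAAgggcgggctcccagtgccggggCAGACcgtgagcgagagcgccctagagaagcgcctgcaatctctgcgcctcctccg
Tgfb3: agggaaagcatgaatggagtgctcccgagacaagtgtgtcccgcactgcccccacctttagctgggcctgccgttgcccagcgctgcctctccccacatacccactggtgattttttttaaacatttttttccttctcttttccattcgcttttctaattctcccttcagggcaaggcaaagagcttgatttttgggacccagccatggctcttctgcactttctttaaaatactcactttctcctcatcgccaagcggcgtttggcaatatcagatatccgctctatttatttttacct
Tgfbi: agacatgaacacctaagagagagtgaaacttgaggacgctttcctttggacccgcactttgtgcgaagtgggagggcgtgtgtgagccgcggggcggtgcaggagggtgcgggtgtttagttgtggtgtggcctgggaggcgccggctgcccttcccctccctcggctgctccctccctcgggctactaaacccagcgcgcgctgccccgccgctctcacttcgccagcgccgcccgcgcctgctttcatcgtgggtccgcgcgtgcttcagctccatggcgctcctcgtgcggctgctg

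The Ccn2 window held 3 copies of GGAATG, 1 with its first base 166 bases before the start and a pair at 101 and 92 bases before it. The Ccn1 window held 1, on the other strand, 113 bases before the start. Among all 33469 windows of the same length, 14.2% held this motif. Both windows also held a TATA box, at 31 bases before the start in Ccn2 and 34 in Ccn1, against 14.2% of all windows. CAGAC was found 2 times in each, but 50.1% of all windows hold it. TGACGT, in 7.94% of all windows, was found on the other strand of Ccn1. The windows of Tgfb1, Tgfb2, Tgfb3 and Tgfbi held none of the 6 motifs, and that of Ltbp1 held TGACGT on both strands, overlapping by 4 bases, and CAGAC. Neither TGACTCA (4.63% of all windows) nor the CArG box (1.64%) was found in any of the 7 windows. A match is a run of letters and not a measured site.

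**Figure D1:**
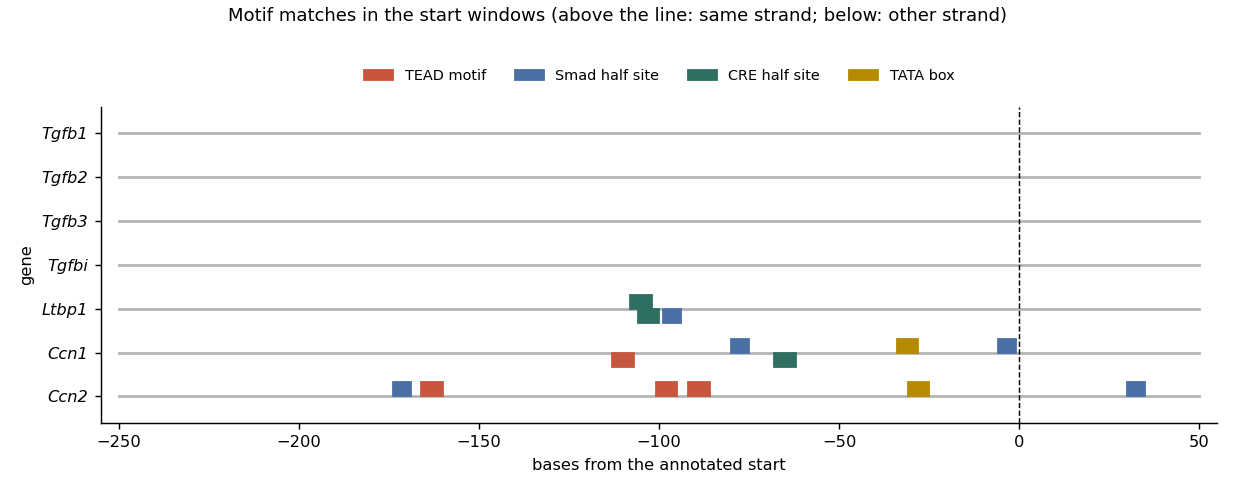
Matches to 4 motifs along the 7 start windows, by bases from the annotated start (x axis), with matches on the gene's strand above each line and those on the other strand below it. The 3 TEAD motifs of Ccn2 and the 1 of Ccn1 lie between 166 and 87 bases before the start, and the lines of Tgfb1, Tgfb2, Tgfb3 and Tgfbi are empty.

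Of the ligands, Tgfb1, the isoform best known from immune cells, was highest in macrophage-like cells, at 228 (171 to 298) CPM in WT and 121 (55.2 to 229) in Nuc1. The WT value came from 54 UMIs in 66.7% of cells, while in Nuc1 1 cell gave 8 of the 9 UMIs and the interval overlapped that of cluster 1. Among the collagen-rich clusters its level ran from 33.0 in cluster 4 to 63.8 in cluster 7 in WT, and from 29.8 in cluster 4 to 51.1 in cluster 1 in Nuc1. Astrocyte-like cells had 6.03 (3.51 to 9.65) and 7.83 (6.10 to 9.89), with intervals below those of all collagen-rich clusters in both libraries. In oligodendrocyte lineage-like cells it had no UMI in WT, where 3 counts would be 3.82 CPM, and 2 in Nuc1.

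Tgfb2, an isoform of embryonic and neural tissue, was highest in the unnamed cluster 9, with 296 (249 to 349.8) in WT and 238 (198 to 282) in Nuc1, though 1 cell gave 28.1% and 1 cell 34.4% of those UMIs and the Nuc1 interval overlapped that of cluster 3. Clusters 0 and 3 followed, with 144 and 132 in WT and 194 and 233 in Nuc1. The astrocyte-like level, 101 (90.0 to 114) and 82.6 (76.8 to 88.8) in WT and Nuc1, was near that of cluster 1 in WT (103) and below it in Nuc1 (113). Cluster 4 stood low at 37.3 (24.4 to 54.7) and 30.8 (26.4 to 35.7).

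Tgfb3, an isoform of mesenchymal tissue, lay between 30.3 and 55.5 in 5 collagen-rich clusters of WT and between 12.5 and 32.7 in Nuc1. In cluster 4 it was nearly absent, with 1 UMI in 53 WT cells and 12 in 368 Nuc1 cells. Astrocyte-like cells had 40.4 (33.3 to 48.6) in WT, within the collagen-rich range, but 6.71 (5.12 to 8.64) in Nuc1. Clusters 6, 8 and 10 held 0 to 5 UMIs per library.

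Ltbp1, which tethers latent TGF-beta to the matrix, was the most thinly captured of the 10 genes, with 150 UMIs in WT and 209 in Nuc1 over all collagen-rich cells. In WT it was highest in cluster 9, with 55.4 (36.2 to 81.2), while in Nuc1 the interval of cluster 9, at 26.0 (14.2 to 43.6), overlapped that of cluster 7, at 33.6 (22.5 to 48.2). Among the collagen-rich clusters it was concentrated in clusters 1, 5 and 7, at 6.70, 12.2 and 8.50 in WT and 22.8, 20.3 and 33.6 in Nuc1. Clusters 0 and 3 stayed under 2 in both libraries. No Ltbp1 UMI was found in clusters 8 and 10, where 3 counts would be 3.82 and 12.7 CPM in WT and 15.2 and 40.2 in Nuc1.

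Tgfbi, a collagen-binding matrix protein induced by TGF-beta, was highest in clusters 0 and 3. Cluster 0 had 237 (227 to 248) in WT and 581 (562 to 601) in Nuc1, and cluster 3 had 210.3 (197 to 224) and 531 (506 to 556). Clusters 0 and 3 together gave 47.9% and 22.3% of the WT library's Tgfbi UMIs, in that order, and 45.8% and 23.2% of those of the Nuc1 library. Glial levels were low, with 19.9 and 35.3 in astrocyte-like cells and 1 UMI in WT and none in Nuc1 in oligodendrocyte lineage-like cells. After astrocyte-like cells with over 300 CPM of 5 fibroblast markers were left out, astrocyte-like Tgfbi was 8.28 (4.99 to 12.9) in WT and 8.61 (6.57 to 11.1) in Nuc1, from 91 and 287 cells.

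**Figure D2:**
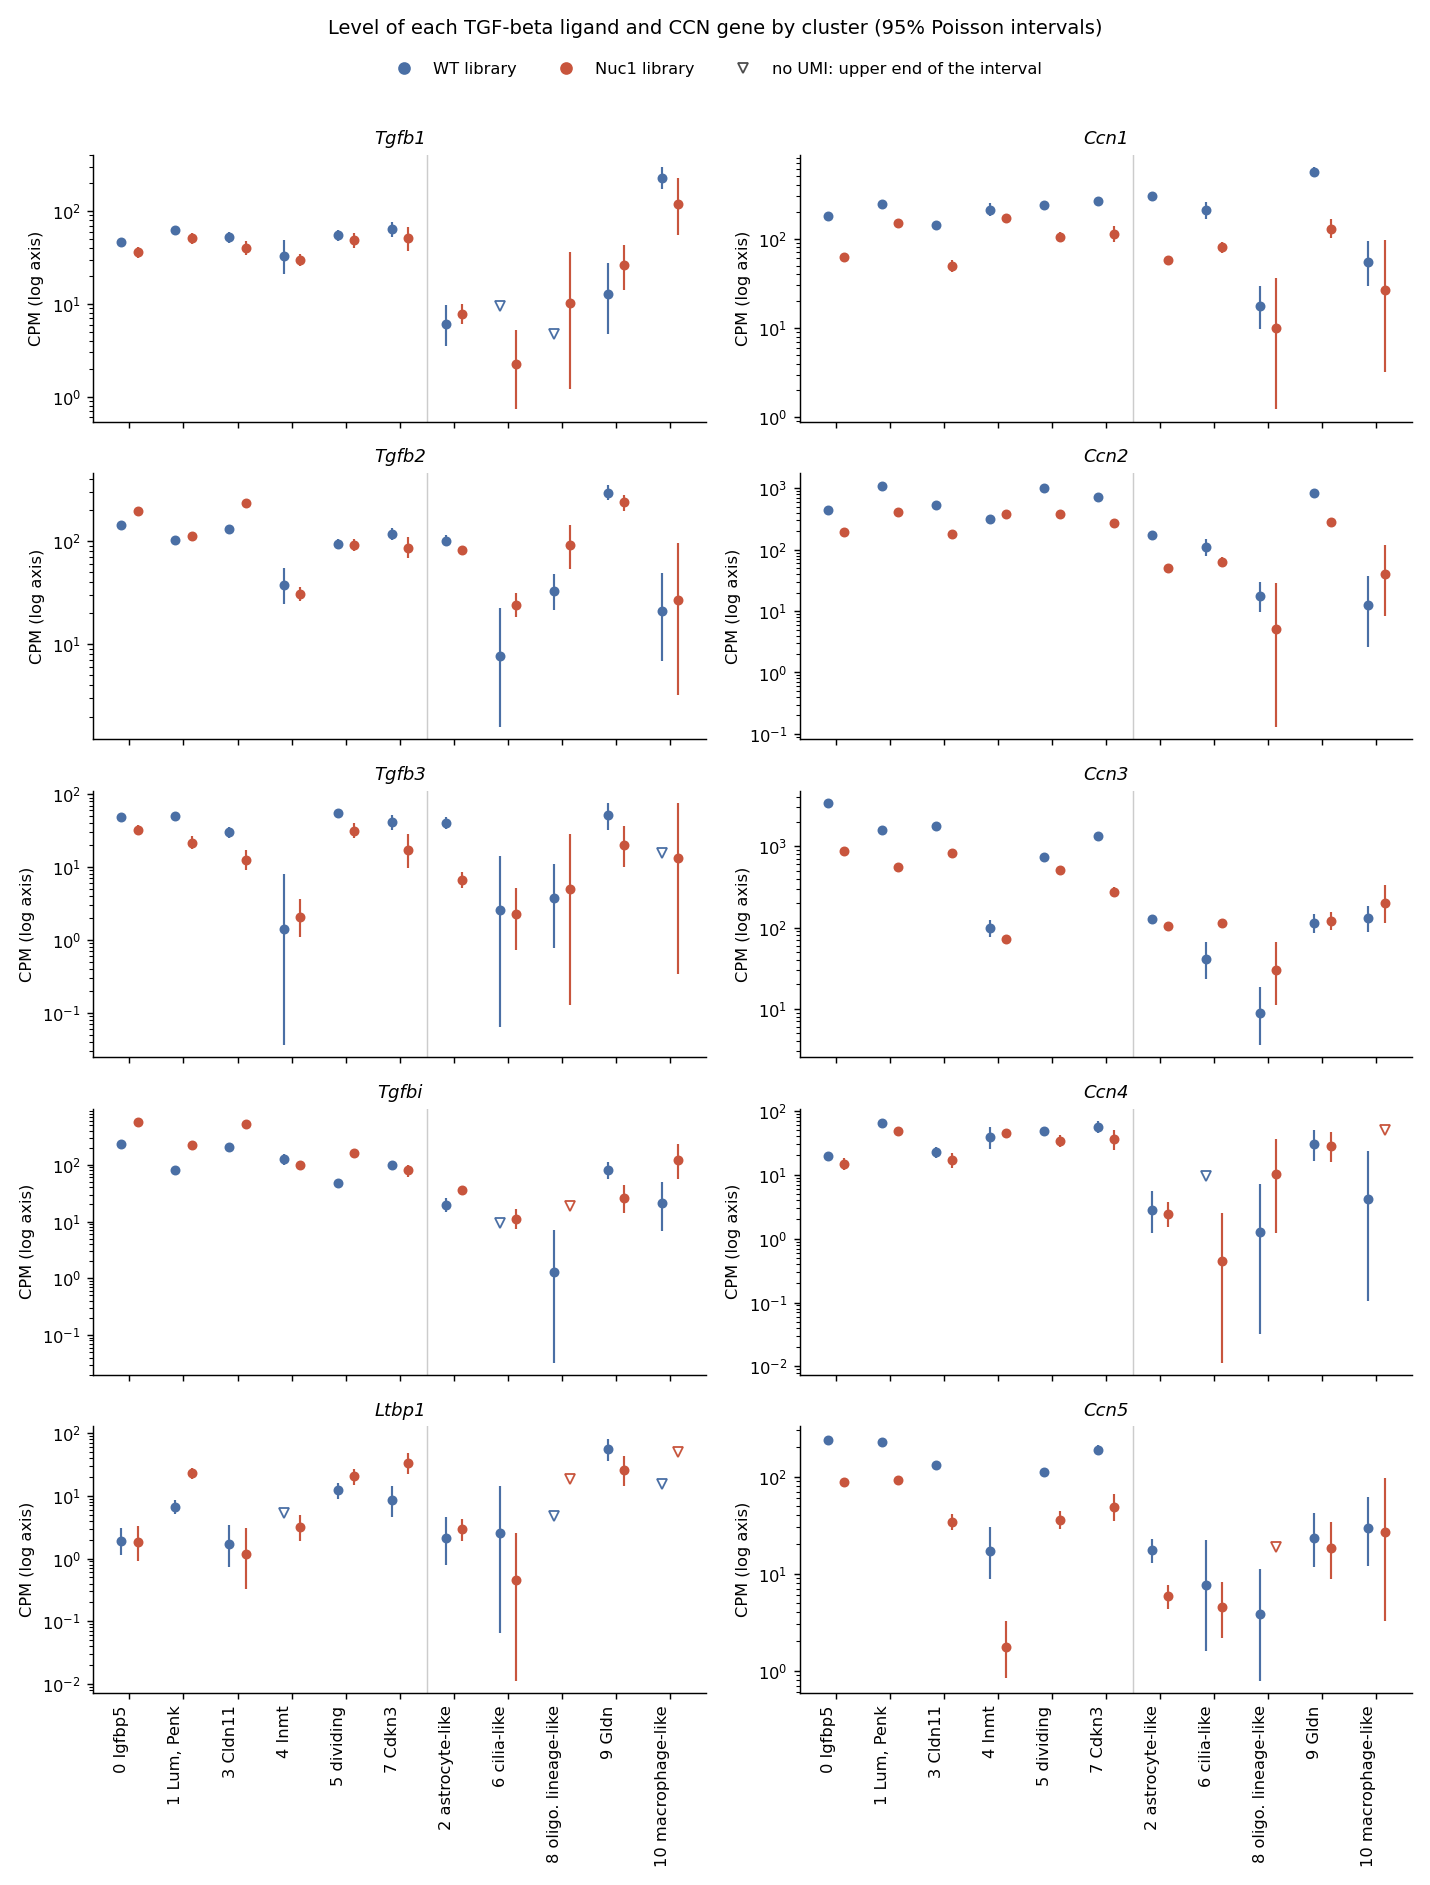
Level of each gene in CPM (log axis) in the 11 clusters, WT in blue and Nuc1 in red, with exact 95% Poisson intervals; open triangles mark clusters with no UMI. The 6 collagen-rich clusters stand left of the grey line: Ccn3, Ccn5 and Tgfb3 dip in cluster 4, Tgfb1 peaks in macrophage-like cells, and Ccn1 in WT is higher in astrocyte-like cells, at 298, than in each collagen-rich cluster.

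Of the CCN genes, Ccn1, an integrin ligand and immediate-early gene, was the 1 of the 10 genes that was not higher in the collagen-rich clusters than in astrocyte-like cells in both libraries. In WT, astrocyte-like cells had 298 (278 to 319) and the collagen-rich clusters 209 (204 to 214), while in Nuc1 the order was turned, with 58.4 (53.5 to 63.6) and 111 (107 to 115). For the other 9 genes the collagen-rich level was higher in both libraries, as it was for 54.9% of 10937 genes tested. The classes were found on the same cells, so this is a description. Cluster 9 was highest in WT with 558 (493 to 630.2) and had 129.9 (101 to 164) in Nuc1. Oligodendrocyte lineage-like cells had the lowest value in WT, 17.8 from 14 UMIs. In Nuc1 they had 2 UMIs (10.1), as did macrophage-like cells (26.8), too few to order.

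Ccn2, which binds TGF-beta and integrins and is a classical marker of fibrosis, was highest in cluster 1, at 1111 (1090 to 1132) in WT and 413 (394 to 432) in Nuc1. The dividing cluster 5 was next in WT, at 995 (964 to 1027). In Nuc1, the intervals of cluster 4, with 378 (362 to 394), and cluster 5, with 376 (352 to 402), overlapped each other and that of cluster 1. Astrocyte-like cells had 174 and 49.8, and cluster 9 848 and 282, of which 1 cell gave 53.3% of the UMIs in Nuc1. Cluster 1 gave 45.3% of all Ccn2 UMIs in WT, whereas in Nuc1 cluster 4 gave 28.5% and cluster 1 23.6%.

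Ccn3, which unlike Ccn1 and Ccn2 is mostly known as a growth-restraining member that binds Notch1, marked the collagen-rich clusters other than cluster 4. In WT its level was 3377 (3339 to 3416) in cluster 0, 1790 (1752 to 1829) in cluster 3, 1568 (1543 to 1594) in cluster 1, 1325 (1270 to 1382) in cluster 7, 732 (706 to 759) in cluster 5 and only 99.0 (77.0 to 125) in cluster 4. None of these WT intervals overlapped. In Nuc1 clusters 0 and 3 came first with overlapping intervals, at 862 (839 to 886) and 816 (786 to 847), and cluster 4 had 72.0 (65.2 to 79.3). Astrocyte-like cells had 129 and 105, and 1 cell gave 27.7% of those UMIs in WT. With the cells rich in fibroblast markers left out, these levels were 64.5 (54.5 to 75.8) and 43.2 (38.5 to 48.4). Oligodendrocyte lineage-like cells had 8.90 and 30.4, from 7 UMIs in WT and 6 in Nuc1. The 6 UMIs are too few to set the 2 Nuc1 levels apart.

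Ccn4, first described as a Wnt1-induced protein, was highest in cluster 1 of both libraries, at 64.5 (59.5 to 69.9) and 48.8 (42.5 to 55.9), with overlapping intervals in cluster 7 and, in Nuc1, in cluster 4 (44.1, interval 38.8 to 49.9). Clusters 0 and 3 had less, from 14.6 to 22.3, and astrocyte-like cells 2.84 and 2.46. Ccn5, which lacks the C-terminal domain of the other CCN proteins, followed Ccn3 across clusters. Its WT levels were 236 (226 to 247) in cluster 0 and 229 (219 to 239) in cluster 1, which could not be told apart, and 17.2 (8.90 to 30.1) in cluster 4, where 7 of the 12 UMIs were from 1 cell. Its Nuc1 level in cluster 4 was 1.75 (0.840 to 3.22), from 10 UMIs in 368 cells. Astrocyte-like cells had 17.4 and 5.82.

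The Nuc1 library was next compared with the WT library within each class, with genes of at least 100 UMIs over both libraries tested and a 2-fold difference as the limit. In the collagen-rich clusters all 10 genes were tested, of which 1 was past 2-fold higher and 4 past 2-fold lower in Nuc1, against 8.19% of 10340 genes past 2-fold in either direction (4.41% higher and 3.78% lower). The median log2 ratio was -0.68 over the 10 genes and 0.02 over all genes tested.

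Ccn3 fell from 1989 (1973 to 2005) to 540.0 (530.5 to 549.6) CPM, a log2 ratio of -1.88 (-1.91 to -1.85), or 3.68-fold lower. It was lower in all 6 collagen-rich clusters, with log2 ratios from -2.26 in cluster 7 to -0.46 in cluster 4. Ccn5, with 193 (188 to 198) and 52.2 (49.3 to 55.3), was 3.69-fold lower, at -1.88 (-1.97 to -1.79). Within the 5 clusters in which it had 100 UMIs its ratio ran from -1.96 to -1.33, all past 2-fold. The lower levels of both genes were thus also seen within clusters.

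Ccn2 had 759.9 (749.9 to 770.0) in WT and 302 (294 to 309) in Nuc1, a log2 ratio of -1.33 (-1.37 to -1.29). Its ratio was -1.20 in cluster 0, -1.43 in cluster 1, -1.59 in cluster 3, -1.40 in cluster 5 and -1.39 in cluster 7. In cluster 4 it was 0.26 (0.06 to 0.47) in the other direction. Ccn1 had 209 (204 to 214) and 111 (107 to 115), short of 2-fold at -0.91 (-0.98 to -0.85), yet was past 2-fold lower in clusters 0, 3, 5 and 7 (-1.52, -1.50, -1.18 and -1.23). Its ratio was -0.74 in cluster 1 and -0.30 in cluster 4. With the 53 WT and 368 Nuc1 cells of cluster 4 left out, the pooled Ccn1 ratio was -1.20. Ccn4 had 40.9 (38.6 to 43.3) and 31.7 (29.4 to 34.1), a log2 ratio of -0.37 (-0.50 to -0.23), and passed 2-fold in none of the 6 collagen-rich clusters, in all of which it was tested.

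Of 16 dissociation response genes, known to be induced when tissue is dissociated, 7 were past 2-fold lower in Nuc1 in the collagen-rich clusters. None was past 2-fold higher, and the median was -0.87. Of all genes tested, 3.78% were past 2-fold lower and 4.41% higher. Hspa1b and Ier3, named after their values were seen, were at 0.82 and 0.30. Nr4a1, an immediate-early nuclear receptor, was at 443 in WT and 71.3 in Nuc1, a log2 ratio of -2.64 (-2.71 to -2.56), and Atf3, Fosb and Zfp36 were at -1.86, -1.68 and -1.68. In cluster 4 5 of 15 were past 2-fold lower, with a median of -0.83, against 6.09% of all genes in either direction. Ccn1 was at -0.30 and Ccn2 at 0.26 there. The part of this response in the ratios of Ccn1 and Ccn2 was not tested.

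Among the ligands, Tgfb3 had 46.1 (43.6 to 48.6) in WT and 19.2 (17.4 to 21.1) in Nuc1, a log2 ratio of -1.26 (-1.42 to -1.11). It was past 2-fold lower in cluster 1 (-1.24) and cluster 3 (-1.27) and under 2-fold in clusters 0 and 5 (-0.59 and -0.81). The pooled ratio fell short of 2-fold without cluster 4, where Tgfb3 was nearly absent, at -0.92. Tgfb1 had 54.3 (51.6 to 57.0) and 40.0 (37.5 to 42.7), a log2 ratio of -0.44 (-0.56 to -0.32). Its ratios in the 6 clusters, from -0.36 to -0.15, were each smaller in size than this pooled ratio. Tgfb2 had 118 (114 to 122) and 129 (124 to 133), a log2 ratio of 0.12 (0.05 to 0.20). Within clusters, Tgfb2 was higher in Nuc1 in cluster 0 (0.44, interval 0.32 to 0.55) and cluster 3 (0.82, interval 0.67 to 0.98). It was lower in cluster 7 (-0.44, interval -0.84 to -0.05). Cluster 4, where Tgfb2 stood low, held 53 WT and 368 Nuc1 cells. With cluster 4 left out, the pooled Tgfb2 ratio was 0.43.

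Tgfbi had 146 (142 to 151) in WT and 322 (314 to 329) in Nuc1, a log2 ratio of 1.14 (1.08 to 1.19), which lay above 96.3% of all genes tested. It was past 2-fold higher in clusters 0, 1, 3 and 5, at 1.29, 1.48, 1.34 and 1.80. In cluster 4 and cluster 7 it was not, with -0.33 (-0.65 to 0.02) and -0.31 (-0.74 to 0.10). The interval of cluster 4, the cluster in which Ccn2 was not lower, thus took in 0 for Tgfbi, as did that of cluster 7, where Ccn2 was past 2-fold lower. Ltbp1 had 5.15 (4.36 to 6.05) and 9.22 (8.01 to 10.6), a log2 ratio of 0.84 (0.53 to 1.15). Only in cluster 1 did it reach 100 UMIs, with 6.70 (5.15 to 8.57) and 22.8 (18.5 to 27.8), 3.40-fold higher in Nuc1 at 1.77 (1.30 to 2.25). There 1 Nuc1 cell gave 16.2% of the UMIs. With each cell thinned to 5000 UMIs the pooled ratio was 0.20, but Ltbp1 then had under 100 UMIs and was not tested. The pooled ratio passed 2-fold with cluster 4 left out, at 1.09.

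**Figure D3:**
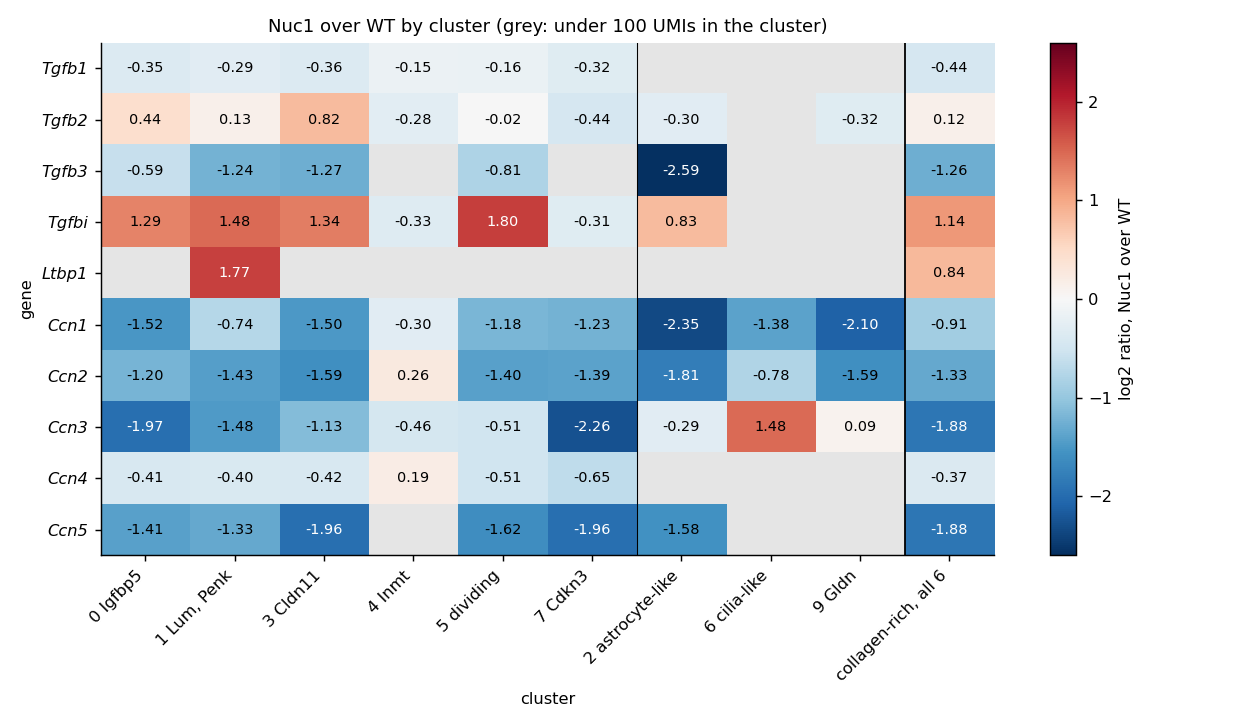
Log2 ratio of the Nuc1 over the WT library for each gene in 9 clusters and in the 6 collagen-rich clusters together; grey cells had under 100 UMIs. Ccn1, Ccn2, Ccn3 and Ccn5 are blue (lower in Nuc1) in most fibroblast clusters and Tgfbi is red (higher), while the column of cluster 4 is pale, with values between -0.46 and 0.26.

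Within single clusters, background shares past 2-fold in either direction were 6.08% in cluster 0, 5.36% in cluster 1, 5.15% in cluster 3, 6.09% in cluster 4, 3.64% in cluster 5 and 6.26% in cluster 7. Beside these, 5 of 9 genes tested were past 2-fold in cluster 0, 6 of 10 in cluster 1, 6 of 9 in cluster 3, none of 7 in cluster 4, 4 of 9 in cluster 5 and 4 of 8 in cluster 7. Cluster 4 was thus the collagen-rich cluster in which none of the tested genes passed 2-fold. It held few WT cells. Ccn5, not tested there, had 12 UMIs (17.2 CPM) in WT and 10 (1.75 CPM) in Nuc1, most of the WT ones from 1 cell. Its log2 ratio was -3.30 (-4.67 to -1.96), so a gene under the 100 UMI limit did differ by over 2-fold in this cluster.

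In astrocyte-like cells 7 of the 10 genes could be tested, and 4 were past 2-fold lower and none past 2-fold higher in Nuc1, against 5.81% of 7604 genes in either direction (1.85% higher and 3.96% lower). Tgfbi, short of 2-fold here, passed it under 4 alternatives, up to 1.26. Of the genes past 2-fold in this class, 31.9% were higher in Nuc1, and this share was 49.9% with TMM scaling and 43.6% with the median set to 0. Ccn1 had 298 (278 to 319) in WT and 58.4 (53.5 to 63.6) in Nuc1, 5.10-fold lower at a log2 ratio of -2.35 (-2.51 to -2.19). Ccn2 had 174 (159 to 190.2) and 49.8 (45.2 to 54.6), at -1.81 (-1.99 to -1.62), and its ratio was -3.41 with at most 10% mitochondrial UMIs per cell and -1.28 with no clustering. Tgfb3 had 40.4 (33.3 to 48.6) and 6.71 (5.12 to 8.64), at -2.59 (-3.07 to -2.13), from 114 and 60 UMIs. Ccn5, with 49 and 52 UMIs, was at -1.58 (-2.17 to -0.99).

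Tgfb2 and Ccn3 were short of 2-fold in astrocyte-like cells, at -0.30 (-0.49 to -0.09) and -0.29 (-0.47 to -0.12). The Ccn3 ratio turned with the cells chosen: it was -1.12 without the Nuc1 cells that held Y-linked UMIs, -0.58 without the fibroblast-rich cells named above and 0.18 with cells picked by markers and no clustering. Tgfbi was at 0.83 (0.42 to 1.27), and at 0.06 once those fibroblast-rich cells were left out. The 7 fibroblast markers summed to 522 CPM in WT and 443 in Nuc1 astrocyte-like cells, with all 7 detected in both. Leaving the same cells out, the ratios of Ccn1, Ccn2 and Tgfb3 were -2.41, -2.06 and -2.94. Of 15 dissociation response genes tested in astrocyte-like cells, 9 were past 2-fold lower in Nuc1, against 3.96% of all genes, with a median of -1.22. Nr4a1 was at -2.39 and Egr1 at -1.57. The part of these genes in the ratios of Ccn1 and Ccn2 was not tested here either.

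In the smaller clusters fewer genes could be tested. Cluster 9 had 2 of 4 past 2-fold (7.79% of all genes), Ccn1 with 558 (493 to 630.2) and 129.9 (101 to 164) and Ccn2 with 848 (767 to 936) and 282 (239 to 331), both lower in Nuc1. In cilia-like cells 2 of 3 were past 2-fold (5.23% of all genes), with Ccn1 at -1.38 (-1.77 to -0.99) and Ccn3 at 1.48 (0.75 to 2.31), from 14 WT cells. The fibroblast markers summed to 94.2 CPM in WT and 245 in Nuc1 cilia-like cells, and their part in the Ccn3 ratio was not tested. None of the 10 genes reached 100 UMIs in oligodendrocyte lineage-like or macrophage-like cells.

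Per cell, the fall of Ccn3 was one of both the share of cells and the amount. With each cell thinned to 5000 UMIs, which left out 28 WT and 40 Nuc1 cells of the whole libraries, 97.6% of WT and 65.3% of Nuc1 cells of cluster 0 had a Ccn3 UMI (99.1% and 77.7% before thinning). The median there was 14 UMIs of 5000 in WT and 2 in Nuc1, and the 10th percentile in WT, 4, lay above the Nuc1 median. In cluster 1 the medians were 4 and 1, and in cluster 3 6 and 2. Over all collagen-rich cells, the tenth of cells with most Ccn3 gave 36.2% of its UMIs in WT and 60.0% in Nuc1. In oligodendrocyte lineage-like cells, which are not known to make Ccn3, 2.04% of WT cells had a UMI after thinning (13.5% before), at a median depth of 12003 UMIs against 11673 in cluster 0. In Nuc1 a UMI was found in 2 of 10 cells after thinning and in 26.7% of 15 before, at a median depth of 8432 UMIs against 13252 in cluster 0.

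Tgfbi showed the opposite shift. In cluster 0 58.2% of WT and 81.6% of Nuc1 cells had a UMI after thinning (80.6% and 94.9% before), with medians of 1 and 2, and in cluster 3 54.3% and 85.6%. The share in oligodendrocyte lineage-like cells after thinning was 2.04% in WT, and 0 of 10 cells in Nuc1. Within cluster 0, cells with more Ccn3 had less Tgfbi, with a Spearman correlation of thinned counts of -0.27 over 661 WT cells and -0.46 over 392 Nuc1 cells; in cluster 3 it was -0.29 and -0.34, and in cluster 1 -0.04 and -0.01. In clusters 5 and 7 it was above 0, from 0.10 to 0.31. Cells of 1 library share its depth and culture and these are descriptions.

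**Figure D4:**
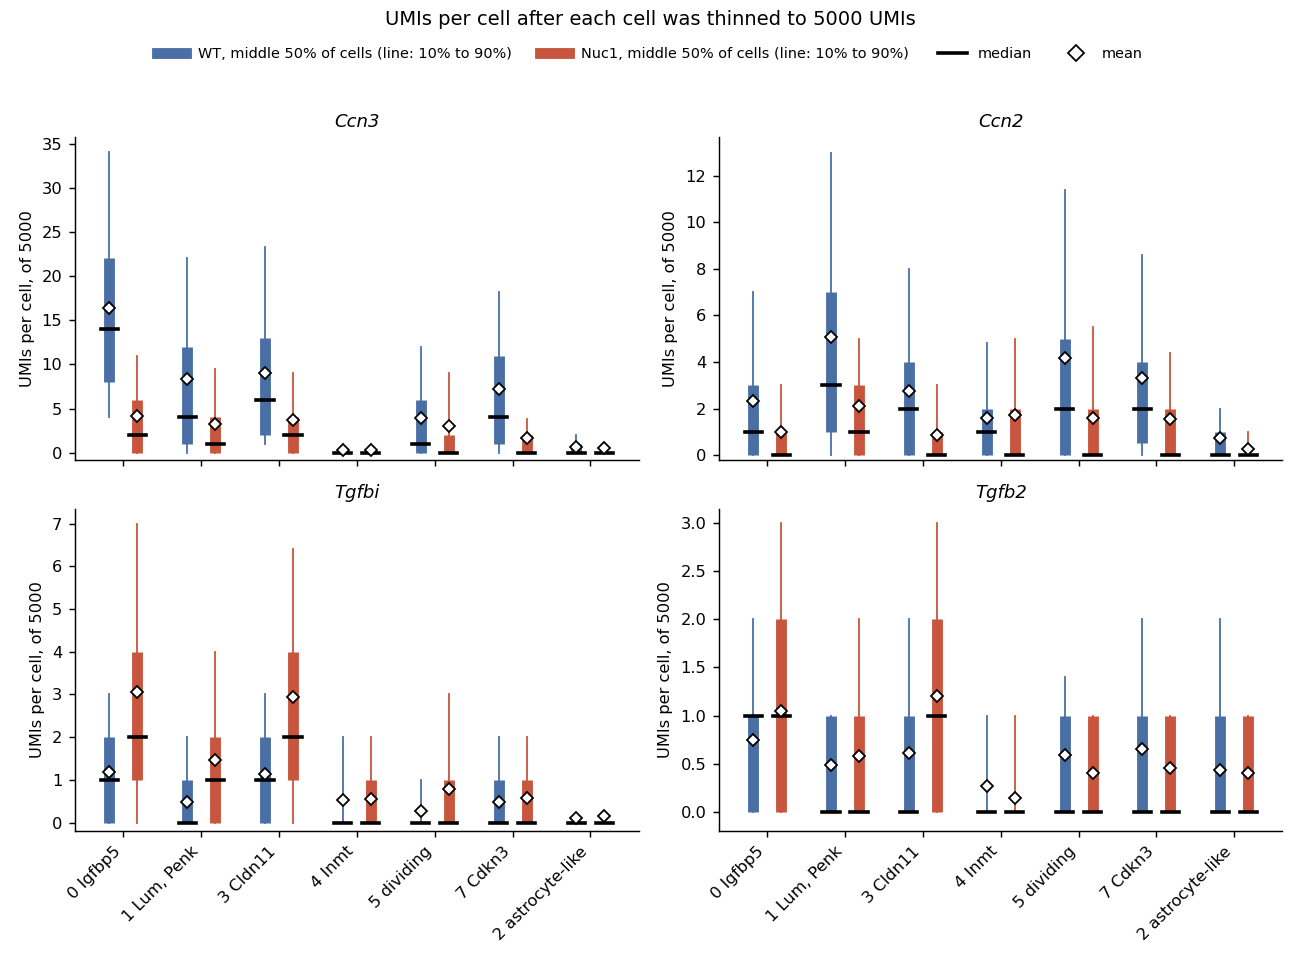
UMIs per cell of Ccn3, Ccn2, Tgfbi and Tgfb2 after thinning each cell to 5000 UMIs, by cluster and library: thick bars hold the middle 50% of cells, thin lines run from the 10th to the 90th percentile, black bars are medians and diamonds means. Ccn3 drops from a median of 14 to 2 in cluster 0, Tgfbi rises from 1 to 2, and Ccn2 means in cluster 4 are 1.58 in WT and 1.71 in Nuc1.

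Ccn2 had a UMI in 80.1% of WT and 59.7% of Nuc1 cells of cluster 1 after thinning, and in 52.8% and 47.1% of cluster 4. For Ccn1 these shares were 70.1% and 23.0% in astrocyte-like cells (90.7% and 53.3% before thinning), against 6.12% in WT oligodendrocyte lineage-like cells and 0 of 10 such cells in Nuc1. Median depths in the astrocyte-like cells were 25874 UMIs in WT and 24305 in Nuc1. Ccn5 had a UMI in 48.8% of WT and 14.7% of Nuc1 collagen-rich cells after thinning, and Tgfb3 in 17.8% and 4.07% of astrocyte-like cells.

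Other genes of the pathway were taken from written lists. Of all genes tested in the collagen-rich clusters, 4.41% were past 2-fold higher and 3.78% past 2-fold lower, the shares to set beside each list. Of the 6 receptor genes, all tested in the collagen-rich clusters, 1 was past 2-fold, Eng, a co-receptor of endothelial and mesenchymal cells, at 7.42 in WT and 27.0 in Nuc1 (1.86, interval 1.64 to 2.09). Within the clusters where Eng reached 100 UMIs it did not pass 2-fold, at 0.95 in cluster 1 and 0.49 in cluster 4, which gave 471 of its 612 Nuc1 UMIs. The co-receptor Tgfbr3 was at 0.57, and Tgfbr1 and Tgfbr2 at -0.06 and -0.24. Of 4 Smads tested, Smad4, the shared partner, was past 2-fold lower, from 231 UMIs in WT and 54 in Nuc1 (-1.74, interval -2.19 to -1.30), and Smad2 and Smad3 were at -0.42 and -0.17. The inhibitory Smad7 was at -0.85 over the pooled clusters but past 2-fold lower in each of clusters 0, 1, 3, 4 and 5, as low as -1.36 in cluster 4, and in astrocyte-like cells, at -1.56.

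Of 13 genes of latency and activation tested in the pooled collagen-rich clusters, 2 were past 2-fold lower and none higher, against 3.78% and 4.41% of all genes. Within single clusters, 1 of 12 was past 2-fold higher and 1 lower in cluster 0. In cluster 3 these numbers were 1 and 2 of 12. The shares of all genes there were 6.08% and 5.15% in either direction. Thbs1, an activator of latent TGF-beta, had 57.2 and 17.5 (-1.71, interval -1.87 to -1.55) and the binding protein Ltbp4 58.0 and 27.1 (-1.10, interval -1.23 to -0.96). Ltbp3 was at -0.41 and the processing enzyme Furin at -0.40. The binding protein Ltbp2 was at 0.38 in the pooled clusters and at -2.06 (-2.44 to -1.68) in astrocyte-like cells. There it was the 1 of 8 genes tested that was past 2-fold lower, against 3.96% of all genes. Among 12 antagonists, Fst (follistatin, 1.64) and the pseudoreceptor Bambi (1.49) were past 2-fold higher, and Pmepa1 (-1.93), itself induced by TGF-beta, and the proteoglycan Dcn (-1.25) past 2-fold lower. Of the clusters in which they were tested, Fst and Bambi passed 2-fold in cluster 4, at 2.77 and 1.23, and in no other, with Fst at 0.63 in cluster 1 and Bambi at -0.45 in cluster 0. The list median was -0.04.

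Of 23 TGF-beta target genes tested in the collagen-rich clusters, 6 were past 2-fold lower and 2 higher in Nuc1. The shares of all genes were 3.78% and 4.41%. The list median was -0.74, against 0.02 for all genes. Smooth muscle actin, Acta2, had 184 and 41.8 (-2.14, interval -2.24 to -2.04), the transcription factor Bhlhe40 was at -2.07, the matrix protein Postn had 188 and 45.1 (-2.06) and the proteoglycan Vcan was at -1.43. The 2 that were higher were the cell cycle inhibitor Cdkn2b (1.01) and the lipid kinase Sphk1 (1.15), named after their values were seen. In cluster 4, 6 of 21 targets were past 2-fold lower and none higher, with a median of -0.69. There 6.09% of all genes were past 2-fold in either direction. In astrocyte-like cells 6 of 14 targets were past 2-fold lower, with a median of -0.55, against 3.96% of all genes.

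Of 14 YAP and TEAD genes and targets tested, 1 was past 2-fold, near the 8.19% of all genes past 2-fold in either direction. It was Tead1, lower in Nuc1, from 236 and 57 UMIs (-1.69, interval -2.13 to -1.27). Lats2 and Amotl2, both known targets, were at -0.70 and -0.55 over the pooled clusters. Within single clusters, Amotl2 was past 2-fold lower in cluster 0 (1 of 8 tested). Tead1 and Lats2 were so in cluster 1 (2 of 9), and Lats2 in cluster 3 (1 of 8). The shares of all genes in either direction were 6.08%, 5.36% and 5.15%. None passed in clusters 4, 5 and 7. The list median was -0.18. In astrocyte-like cells Amotl2 was past 2-fold lower, with 140.4 and 52.3 (-1.42, interval -1.62 to -1.23). None of the 7 CCN receptor genes tested in the pooled collagen-rich clusters was past 2-fold. Within single clusters, Notch1 was past 2-fold higher in cluster 4 (1 of 5 tested). Itga6 was past 2-fold lower in cluster 5 (1 of 5) and Lrp1 in cluster 7 (1 of 2). The shares of all genes in either direction were 6.09%, 3.64% and 6.26%. None passed in clusters 0, 1 and 3. The pooled values follow. The integrin chain Itga6 was at -0.96, and the median was -0.07. Ccn6 had no UMI in WT and 1 in Nuc1 in the collagen-rich clusters.

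**Figure D5:**
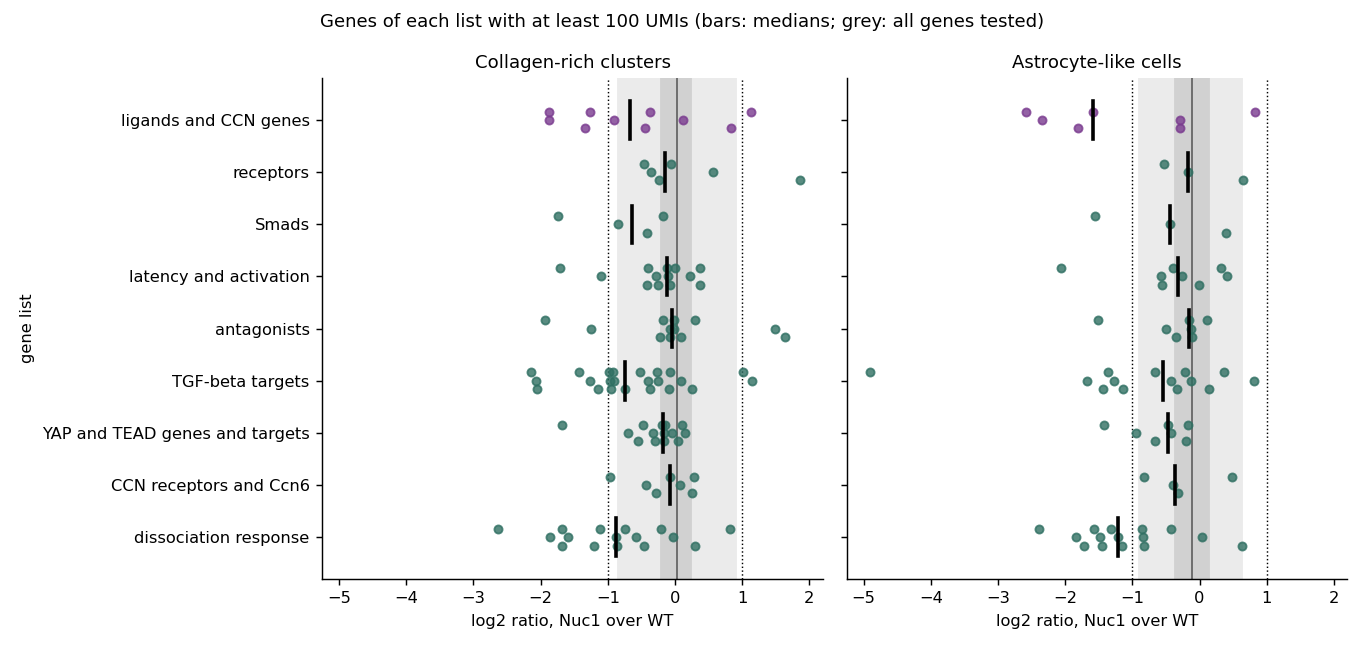
Log2 ratio of Nuc1 over WT for the 10 genes (purple) and for the genes of 8 pathway lists (green) with at least 100 UMIs, in the collagen-rich clusters and in astrocyte-like cells; black bars are list medians, the dark and light grey bands hold the middle 50% and 90% of all genes tested, and dotted lines mark 2-fold. The ligand and CCN genes, the TGF-beta targets and the dissociation response genes have medians of -0.68, -0.74 and -0.87 in the collagen-rich clusters, while the receptor list lies at -0.15.

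Across the 20 pairs of cluster and library with at least 20 cells, the genes whose log2 level was most like that of Ccn3 were Shisa3, Clec11a and Msln (Pearson r = 0.93, 0.93 and 0.92), and those most like Ccn5 were Aspn, Tspan8 and Epyc (all 0.94). Ccn3 and Ccn5 were at 0.92 with each other, the highest of the 45 pairs among the 10 genes, followed by Ccn2 and Ccn4 at 0.88 and Ccn1 and Ccn2 at 0.83. Ccn2 was most like Rnd3, Nexn and Fn1 (0.93, 0.91 and 0.91), Ccn4 most like Loxl2, Srpx and Cald1 (0.94, 0.93 and 0.93) and Ccn1 most like Wnt5a, Dlc1 and Dusp1 (0.88, 0.87 and 0.86). For Tgfbi these were Dock5, Tpm1 and Shc1 (0.90, 0.89 and 0.89). Tgfb1 was most like Sh3bgrl3, Prkcd and Gusb (0.93, 0.93 and 0.90), Tgfb2 most like Bicd1, Pdgfc and Fyco1 (0.85, 0.83 and 0.82), Tgfb3 most like Atp10a, Cavin3 and Rspo3 (0.87, 0.87 and 0.83) and Ltbp1 most like Fbln5, Csrp1 and Actn1 (0.85, 0.80 and 0.80). The profiles share 2 libraries and 6 fibroblast clusters, and r describes them only; Tgfb1 and Tgfb2 were the pair least alike, at -0.06.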

How the data were processed

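The authors deposited 1 matrix of raw UMI counts per library, from 10x Genomics Chromium Single Cell 3′ v3.1 libraries; the submitters' processing notes name Cell Ranger 3.1.0, STAR 2.7 and Seurat 3.1.0 and 3.1.1, and the genome build was not given in the sources used here. Counts tagged at the 3′ end do not tell isoforms apart. Barcodes passed with 500 or more genes detected and no more than 20% of UMIs from 13 mitochondrial genes (1968 WT, 1793 Nuc1), and Scrublet (scanpy 1.11.5, expected rate 2%) removed 7 WT cells (0.356%) and 13 Nuc1 cells (0.725%). Of the barcodes, 2 occurred in both libraries. Libraries were integrated with Seurat 5.3.0 in R 4.3.3 (2000 variable genes without the 10 genes studied, 30 components, resolution 0.5). Clusters with at least 5000 CPM of Col1a1, Col1a2, Col3a1, Dcn and Lum were called collagen-rich, a limit chosen once the data had been seen, and a class name needed 3 of its markers among the 10 leading genes.

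UMIs were summed per cluster and library and divided by the class total. Intervals (95%) are exact Poisson for CPM and exact conditional binomial for ratios. Each group was 1 library, so no test between genotypes was possible. Genes with at least 100 UMIs over both libraries were tested against a 2-fold limit, with 0.5 UMIs added per sum when all genes were counted. On simulated counts of 10340 genes for the collagen-rich comparison, 95.3% of intervals held the true ratio. These counts were Poisson draws without variation between cells or libraries, so the share checks the calculation only. All 10 genes were named, at most 4 genes per pathway list by size of ratio, and for each of the 10 the 3 genes most alike in log2(CPM + 10) over clusters and libraries. Exceptions named outside this rule are Tgfbr1, Tgfbr2, Ltbp2, Notch1, Ccn6, Hspa1b, Ier3, Cdkn2b, Sphk1 and, in astrocyte-like cells, Egr1 and Amotl2. The genes and lists were chosen with earlier results of these data known. The listed symbols Itgb5, Ier2 and Hspa1a were not matched. Alternatives varied cell filters, doublets, integration, resolution, weighting, scaling (edgeR 4.0.16 TMM), depth, cell cycle phase and class definition.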

Additional observations from a re-analysis of the deposited data

Results flagged for a closer look

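In 3 genes the difference between Nuc1 and WT ran against that in other clusters with at least 100 UMIs, with intervals on opposite sides of 0; the difference between clusters itself was not tested. Ccn2 had a log2 ratio of 0.26 in cluster 4 and was lower in Nuc1 in 8 other clusters, from -1.81 in astrocyte-like cells to -0.78 in cilia-like cells. Ccn3 had 1.48 in cilia-like cells, from 16 UMIs in WT and 253 in Nuc1, and was lower in 7 other clusters. Tgfb2 had 0.44 in cluster 0 and 0.82 in cluster 3 but -0.30 in astrocyte-like cells and -0.44 in cluster 7.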

How the results depend on the processing

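The number of the 10 genes past 2-fold in the collagen-rich clusters was 5 under each alternative run except the one without cluster 4, which was added after seeing the data and gave 6. These were not always the same genes: without cluster 4 Ccn1 and Ltbp1 passed 2-fold and Tgfb3 did not, and with equal weights Ltbp1 passed and Tgfb3 did not. In astrocyte-like cells the number was 4, and it was 2 with at most 10% mitochondrial UMIs and 2 with each cell thinned to 5000 UMIs; there 5 and 4 of the genes reached 100 UMIs, against 7. It was 5 with at least 200 genes per cell, with doublets kept, with TMM scaling and with no clustering, and 3 without integration, among G1 cells and without fibroblast-rich cells. Tgfbi passed 2-fold higher under the first 4 of these. Without fibroblast-rich cells Ccn5 had 38 UMIs in WT and 5 in Nuc1, under the 100 UMI limit, so it was not counted. Genes of the whole table past 2-fold in the collagen-rich clusters numbered 847, and 553 after thinning, 1453 among genes with at least 20 UMIs and 4067 among genes with at least 1 UMI. Genes higher in collagen-rich than in astrocyte-like cells in both libraries numbered 9, and from 7 to 9 under the alternatives. Of the single ratios under the alternatives, 241 moved by less than their counting interval and 49 by more. In the collagen-rich clusters Ltbp1 ran from 0.20 when thinned, where it had under 100 UMIs, to 1.41 with equal weights. In astrocyte-like cells Tgfbi ran from 0.06 without fibroblast-rich cells to 1.26 with cells picked by markers. Ccn2 ran there from -3.41 with at most 10% mitochondrial UMIs to -1.28 with cells picked by markers. Ccn3 ran from -1.12 without Nuc1 cells with Y-linked UMIs to 0.18 with cells picked by markers. Ccn5 was at -4.53 without fibroblast-rich cells, from 38 WT and 5 Nuc1 UMIs. The cause of these shifts was not tested. Equal weighting could not differ there, since the class is 1 cluster. No paired analysis was possible because WT and Nuc1 were 1 library each. Depth limits Ltbp1 and the small glial and macrophage-like clusters.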
